A study of Mus musculus with 2 samples.

Results

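The keratin and keratin-associated genes of mouse liver were examined as 97 genes of the 21418 autosomal protein-coding genes in the mm9 annotation of GENCODE. A member is a gene whose symbol starts with Krt or Krtap followed by a digit, and its window runs from 2 kb upstream of the 5' end to 1 kb past the end of the gene. The members were taken in 4 groups, namely 4 simple epithelial keratin genes (Krt7, Krt8, Krt18 and Krt19), 26 other keratin genes of the type I cluster on chromosome 11, 21 of the type II cluster on chromosome 15 and 46 keratin-associated protein genes. DNA methylation was measured by reduced representation bisulfite sequencing (RRBS), which reads CpGs near the CCGG sites that the enzyme MspI cuts, in liver DNA of 3-month-old male mice. The WT library holds DNA pooled from 3 wild-type mice and the KI library DNA pooled from 3 homozygous littermates with the YP187/188AA mutation in Uhrf1, so there is 1 library per genotype and no spread between animals can be given. C57BL/6 is the labelled strain, and the mutation was introduced in ES cells of 129/SV origin. In the genotype label of the KI sample the words are knock out, although its title and the study name a KI, and KI is used here. The mutation itself and the expression of any gene are not measured in these data.

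Keratins build the intermediate filaments of epithelial cells, and each filament pairs an acidic type I keratin with a basic type II keratin. Hepatocytes use Krt8 with Krt18, bile duct cells add Krt7 and Krt19, and the other members serve the epidermis, other lining epithelia or hair, where keratin-associated proteins cross-link the filaments. UHRF1 recognizes hemimethylated CpGs at replicated DNA, which lets the maintenance methyltransferase copy the methylation pattern, and the KI mutation removes its binding to H3K9me2/3. The comparison of WT and KI addresses how far methylation at these genes depends on that binding.

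The deposited files list 7231934 CpG cytosines in WT and 6452685 in KI, with 192144002 and 173109895 summed reads, and 2654195 cytosines had at least 5 reads in both libraries (shared CpGs, with the strands of a CpG counted apart). Of these, 1681 lay in the windows of the members, none in the windows of more than 1 member. Their median depth was 48 reads in WT and 54 in KI. At least 1 shared CpG was found for 55 of the 97 members and at least 5, the minimum for a test, for 51. Krt13, Krtap4-7, Krtap4-16 and Krtap16-8 had fewer than 5 and were not tested. The 42 members without a shared CpG were 35 keratin-associated genes and 7 type I genes, among them Krt17, Krt31, Krt32 and Krt34, named here after their values were seen. Their windows held a median of 1.5 CCGG sites, compared with 10 in the measured members, and 0.723 CpGs per 100 bases, compared with 1.29. All values below therefore describe the members that RRBS reaches, which includes every simple epithelial and every type II gene.

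Selected sequences of 7 members are printed from mm9, 5' to 3' on the strand of the gene. Capitals mark the shared CpGs, on either strand. The first 237 coding bases of Krt7, a part of its first coding exon, are shown from the start codon (chr15:101242905-101243141, + strand). They overlap the stretch with the largest difference among the simple epithelial genes.
Krt7 first coding exon: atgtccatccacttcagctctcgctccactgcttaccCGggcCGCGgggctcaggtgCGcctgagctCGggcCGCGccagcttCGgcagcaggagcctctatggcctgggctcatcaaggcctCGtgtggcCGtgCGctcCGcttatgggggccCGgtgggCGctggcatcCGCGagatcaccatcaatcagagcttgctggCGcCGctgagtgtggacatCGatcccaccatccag
For Krt8 the 250 bases upstream of the transcript start (chr15:101834774-101835023, - strand) hold only 3 CpGs, so 300 bases of its first intron (chr15:101833345-101833644, - strand), in which all 17 CpGs were measured, are shown too.
Krt8 upstream: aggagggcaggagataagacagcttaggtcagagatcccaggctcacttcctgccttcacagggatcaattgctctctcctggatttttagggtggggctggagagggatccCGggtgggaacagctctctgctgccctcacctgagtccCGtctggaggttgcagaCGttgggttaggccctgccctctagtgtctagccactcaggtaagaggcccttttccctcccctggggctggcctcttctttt
Krt8 intron 1: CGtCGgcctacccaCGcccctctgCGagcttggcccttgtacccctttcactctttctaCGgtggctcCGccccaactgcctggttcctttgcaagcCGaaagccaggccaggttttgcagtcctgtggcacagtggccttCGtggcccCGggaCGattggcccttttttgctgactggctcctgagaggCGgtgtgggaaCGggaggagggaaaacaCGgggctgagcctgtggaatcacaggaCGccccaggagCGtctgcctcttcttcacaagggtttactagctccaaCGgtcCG
For Krt18 the 250 bases upstream of the transcript start are shown (chr15:101858397-101858646, + strand), and for Krt19 the first 300 coding bases (chr11:100006874-100007173, - strand).
Krt18 upstream: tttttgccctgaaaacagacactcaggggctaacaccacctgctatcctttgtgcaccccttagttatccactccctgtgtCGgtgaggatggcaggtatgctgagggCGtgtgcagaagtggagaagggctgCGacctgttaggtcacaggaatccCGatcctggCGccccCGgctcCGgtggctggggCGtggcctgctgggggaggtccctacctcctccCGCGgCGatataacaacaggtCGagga
Krt19 first coding exon: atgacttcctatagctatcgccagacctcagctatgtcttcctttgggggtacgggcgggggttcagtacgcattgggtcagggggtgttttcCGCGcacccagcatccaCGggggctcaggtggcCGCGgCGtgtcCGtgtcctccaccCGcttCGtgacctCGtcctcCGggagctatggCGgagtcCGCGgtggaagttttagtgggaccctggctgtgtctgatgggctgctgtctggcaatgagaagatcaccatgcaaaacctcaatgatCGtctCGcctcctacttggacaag
Krt79 and Krt72-ps were the other members with the most shared CpGs near their starts, and their first 300 coding bases are shown for contrast (chr15:101770346-101770645 and chr15:101616590-101616889, both - strand).
Krt79 first coding exon: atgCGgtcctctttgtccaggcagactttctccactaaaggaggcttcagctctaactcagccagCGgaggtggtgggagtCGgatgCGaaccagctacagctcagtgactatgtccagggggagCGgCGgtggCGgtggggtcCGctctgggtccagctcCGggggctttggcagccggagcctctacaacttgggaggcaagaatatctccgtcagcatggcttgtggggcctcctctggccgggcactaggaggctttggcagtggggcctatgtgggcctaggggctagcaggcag
Krt72-ps first coding exon: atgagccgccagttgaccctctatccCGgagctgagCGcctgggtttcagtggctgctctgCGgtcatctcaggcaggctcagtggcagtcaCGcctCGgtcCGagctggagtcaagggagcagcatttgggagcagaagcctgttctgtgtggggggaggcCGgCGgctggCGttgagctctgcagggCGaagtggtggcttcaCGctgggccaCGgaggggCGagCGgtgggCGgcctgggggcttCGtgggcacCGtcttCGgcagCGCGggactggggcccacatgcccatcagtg
For Krt86 the end of the last intron and the last coding exon are shown (chr15:101309686-101309985, + strand), since they lie in the stretch with the most CpGs called lower of any member.
Krt86 last coding exon: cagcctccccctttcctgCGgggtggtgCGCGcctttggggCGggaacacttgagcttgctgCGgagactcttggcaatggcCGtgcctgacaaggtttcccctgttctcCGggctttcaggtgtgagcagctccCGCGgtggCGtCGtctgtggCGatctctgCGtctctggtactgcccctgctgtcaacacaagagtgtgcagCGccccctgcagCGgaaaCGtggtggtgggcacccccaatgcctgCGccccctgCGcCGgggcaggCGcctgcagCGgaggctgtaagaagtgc

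The printed sequences differed widely in level. The 38 cytosines measured in the printed part of the Krt7 exon averaged 31.3% in WT and 17.9% in KI, and the 36 in the Krt86 sequence 39.2% and 17.5%. The printed Krt72-ps exon has a like GC content (67.7% of bases, compared with 66.7% in Krt7 and 66.3% in Krt86) and a like number of CpGs (21, compared with 20 and 21), yet its 40 cytosines averaged 81.2% in WT and 73.2% in KI. The 17 cytosines in Krt79 averaged 85.8% and 82.6%. In contrast, the 34 cytosines in the Krt8 intron averaged 1.50% and 0.551%, the 18 upstream of Krt18 averaged 1.19% and 1.03%, and the 21 in the Krt19 exon 5.16% and 4.37%. Upstream of Krt8 only 3 cytosines were measured, at 21.6% and 7.50%, and the interval of that difference includes 0 (-31.4 to 3.16 points).

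Over all 1681 shared CpGs of the members, the mean methylation level was 54.4% in WT and 48.2% in KI, a difference of -6.26 points (95% interval of counting error -6.71 to -5.82). The interval treats reads as independent, whereas 1 read covers several CpGs and PCR copies cannot be told apart, so it is too narrow. The KI level was the lower at 1111 CpGs, the higher at 382 and equal at 188. The mean of the gene was lower in KI for 46 of the 51 members with at least 5 shared CpGs. A gene was called lower where Fisher's exact test of the reads summed over its CpGs and a Cochran-Mantel-Haenszel test stratified by CpG both gave an adjusted p under 0.05 over all genes, in the same direction, with a mean change of at least 5 points. By this rule 23 of the 51 members were called lower and none higher, whereas 9.54% of the 17151 genes tested were called lower and 0.134% higher. Without the limit of 5 points, 29 of the 51 members were called lower, beside 31.8% of all genes. Such p-values compare 2 libraries and not the genotypes, and differences between animals cannot be told apart from those between genotypes.

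**Figure D1:**
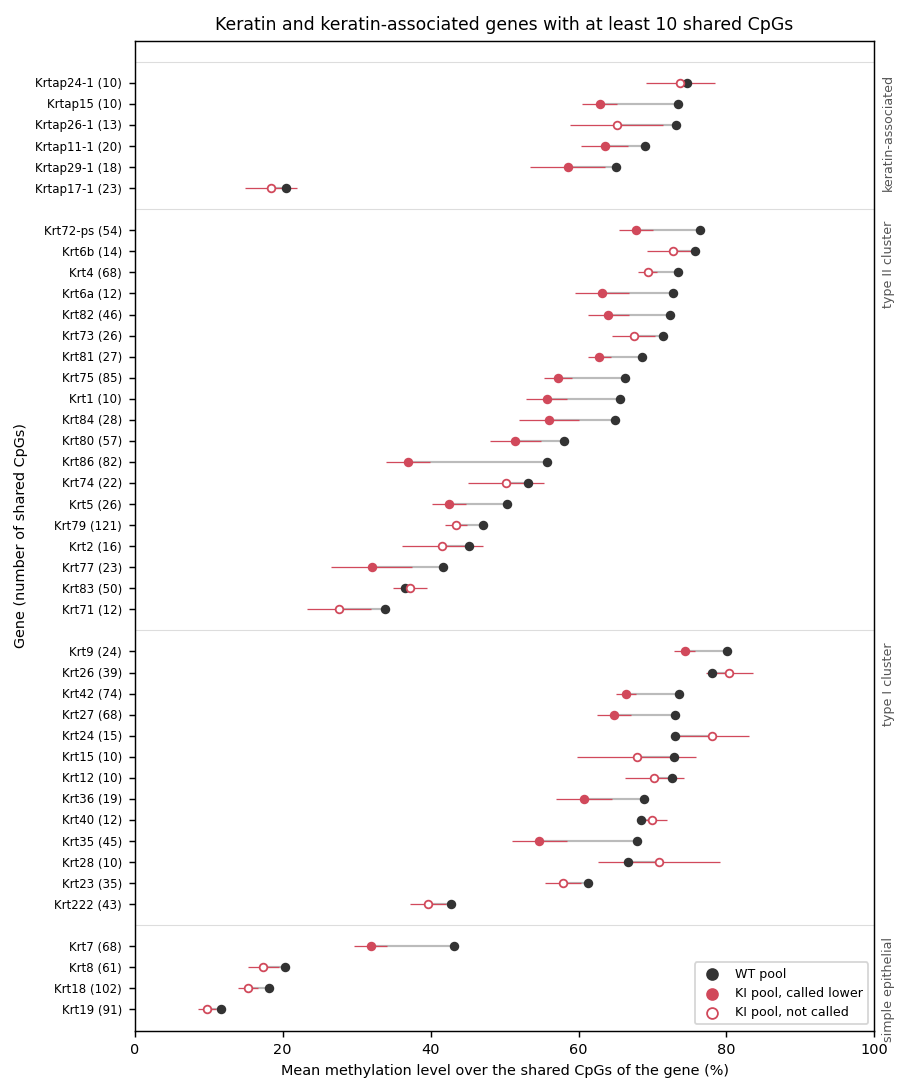
Mean methylation level (x axis, %) of each member with at least 10 shared CpGs (y axis, number of shared CpGs in brackets), by group, in the WT pool (dark) and the KI pool (red, filled where the gene was called lower). The lines at the KI points are the 95% counting interval of the KI minus WT difference. The simple epithelial genes sit at the left between 9.75% and 43.1%, and Krt86 has the longest distance between its points.

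Averaged over their CpGs, the simple epithelial genes differed from the rest of the family in level. Their 322 CpGs averaged 22.0% in WT and 17.6% in KI, and the 1359 CpGs of the other members averaged 62.1% and 55.4%. The WT level of the simple epithelial genes minus that of the others was -40.1 points (95% interval -40.8 to -39.4). Their KI minus WT difference was -4.36 points (-5.18 to -3.53) compared with -6.72 points (-7.23 to -6.21) in the others, which is smaller in size by 2.36 points (1.39 to 3.33). Relative to the WT level, in contrast, the simple epithelial genes lost 19.8% and the others 10.8%. The simple epithelial values lean on 1 gene. Krt7, with 68 of the 322 CpGs, changed by -11.2 points, whereas Krt8, Krt18 and Krt19 changed by -2.96, -2.83 and -1.89 points. The WT levels of Krt8, Krt18 and Krt19 were 20.3%, 18.1% and 11.6%. That of Krt7, 43.1%, lay above some other members, among them Krtap17-1 (20.4%), Krt83 (36.5%) and Krt222 (42.8%). The intervals above cover counting error over CpGs and no test over genes was made, since 4 genes are compared.

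Among the simple epithelial genes, only Krt7 was called lower. Krt7 (chr15:101241474-101260744), a type II keratin of ducts and glands, had 43.1% methylation in WT and 31.9% in KI over 68 CpGs, a difference of -11.2 points (-13.5 to -8.94). Both adjusted p-values, of the summed reads by Fisher's exact test (3.28e-61) and by the stratified test (9.64e-35), passed the threshold, and 54 of the 68 CpGs were lower in KI. The difference was gathered in 1 stretch of 54 CpGs, 48 of them in coding sequence, which starts within the printed part of the exon. It runs from 109 to 409 bases after the start of the transcript with the longest coding sequence (chr15:101242833). Distances of stretches and CpGs from a start are counted from such a transcript start. It lies far inside the annotated gene for Krt7 and Krt19, and slightly inside for some others, Krt35 and Krt222 among them. The Krt7 stretch averaged 40.9% in WT and 27.5% in KI, with 48 CpGs lower and 5 higher. The strands agreed, with 41.6% and 28.9% on the plus strand and 40.1% and 26.1% on the minus strand. Both libraries had higher levels further from the start. The 38 cytosines up to 294 bases from the start averaged 31.3% and 17.9%, and the 16 cytosines from 315 to 409 bases averaged 63.5% and 50.3%, with differences of -13.4 points (-16.0 to -10.9) and -13.2 points (-17.2 to -9.11). In all, 6 CpGs of Krt7 were called lower on their own, at an adjusted p under 0.05 by Fisher's exact test over all shared CpGs and a difference above 25 points. The CpG 294 bases from the start had 62 of 103 reads methylated in WT and 15 of 70 in KI.

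**Figure D2:**
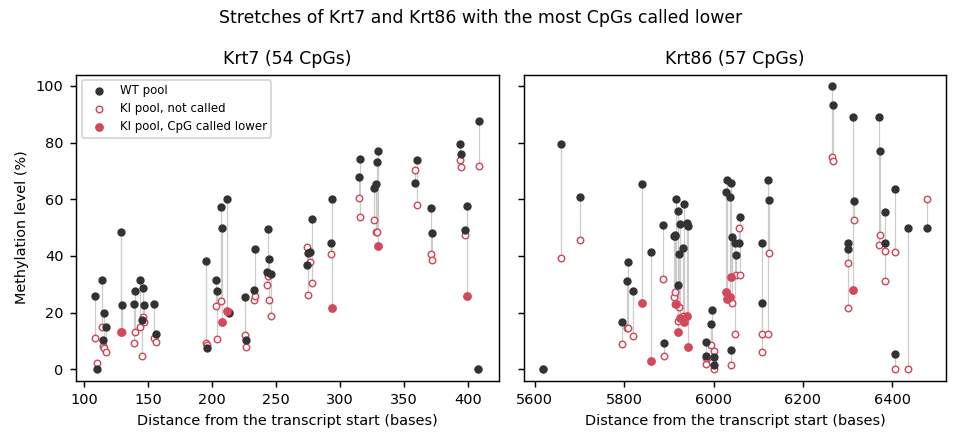
Methylation level (y axis, %) of each shared CpG in the stretches of Krt7 (54 CpGs) and Krt86 (57 CpGs) by distance from the start of the transcript with the longest coding sequence (x axis, bases), in the WT pool (dark) and the KI pool (red, filled where the CpG was called lower on its own), with a grey line joining both values of a CpG. The KI points lie below the WT points at 48 of the 54 CpGs of Krt7 and 53 of the 57 of Krt86.

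Krt8, Krt18 and Krt19 were not called. Krt8 (chr15:101827142-101834773), the type II partner in hepatocyte filaments, had 20.3% in WT and 17.4% in KI over 61 CpGs, a difference of -2.96 points (-5.05 to -0.869), and its summed reads moved by 0.291 points the other way (adjusted p = 0.776 by Fisher's exact test). Krt18 (chr15:101858647-101862457), its type I partner, had 18.1% and 15.3% over 102 CpGs, a difference of -2.83 points (-4.16 to -1.50). For Krt18 the stratified test gave an adjusted p of 4.6e-11 and Fisher's exact test on summed reads 0.652. Krt19 (chr11:100002124-100009979), the type I keratin of bile ducts, had 11.6% and 9.75% over 91 CpGs, a difference of -1.89 points (-3.12 to -0.649). Krt19 passed both tests (adjusted p = 0.0181 by Fisher's exact test and 0.000105 by the stratified test) but not the limit of 5 points.

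Along these 3 genes the level differed with position in both libraries. Levels were low near the starts of Krt19 and Krt18 and in the first intron of Krt8, with 76 CpGs of Krt19 from 100 bases before to 1045 after the transcript start at 3.99% in WT and 3.73% in KI, and 36 CpGs in the first intron of Krt8 at 1.42% and 0.751%. The 63 CpGs of Krt18 from 278 bases before to 682 after its start were at 6.69% and 4.26%. Further along, methylation was higher in both libraries. Around the second exon of Krt18, 20 CpGs averaged 54.6% and 51.0%, and near the fourth exon of Krt8, 12 CpGs averaged 76.3% and 71.5%, with an interval of the difference that includes 0 (-10.6 to 0.905 points). In an intron of Krt19, from 1399 to 1567 bases after the start, 10 CpGs averaged 51.4% and 38.9%. Here the difference of -12.5 points (-16.8 to -8.24) had an interval that overlaps that of the Krt7 stretch (-15.5 to -11.2), and 9 of the 10 CpGs were lower in KI. At the start of Krt8, 8 CpGs on 1 strand had 19.7% and 8.02% at median depths of 13 and 12 reads.

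**Figure D3:**
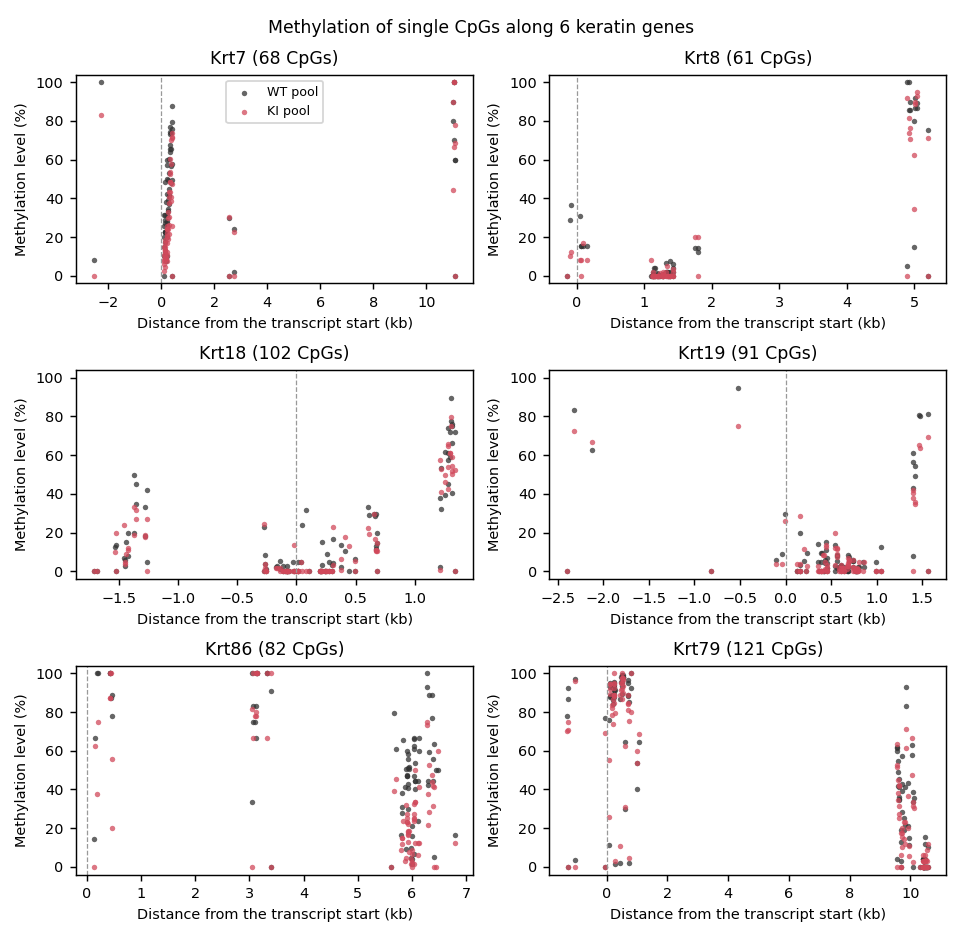
Methylation level (y axis, %) of each shared CpG of Krt7, Krt8, Krt18, Krt19, Krt86 and Krt79 by distance from the start of the transcript with the longest coding sequence (x axis, kb, dashed line at the start), in the WT pool (dark) and the KI pool (red). CpGs near the starts of Krt18 and Krt19 and in the first intron of Krt8 lie mostly under 20% in both pools, those of the Krt7 start spread between 0 and 87.7% in WT, and those of the Krt79 start lie mostly above 70%.

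In the type II cluster, 12 of 21 genes were called lower (57.1%), beside 9.54% of all genes. Among genes whose mean of WT and KI was over 50%, 8 of 13 were called lower (61.5%), beside 21.9% of all such genes. The 792 CpGs of the cluster averaged 59.2% in WT and 51.8% in KI, a difference of -7.37 points (-8.04 to -6.69). The gene with the largest fall among members with at least 10 CpGs was Krt86 (chr15:101303909-101310414), a hair keratin. It had 55.7% in WT and 36.9% in KI over 82 CpGs, a difference of -18.8 points (-21.8 to -15.8), with adjusted p-values of 5.07e-69 by Fisher's exact test and 2.06e-87 by the stratified test. Of its CpGs, 57 lay around the ninth exon, from 5619 to 6478 bases after the start, and had 45.8% in WT and 23.5% in KI and 53 CpGs lower. The 10 CpGs at the fifth exon of Krt86 were at 81.7% and 78.4%, with an interval of the difference from -14.4 to 7.86 points. Around the first exon 6 CpGs were at 92.4% and 75.1%, a difference of -17.3 points (-30.5 to -4.01) at median depths of 8 reads. The authors kept reads that mapped to 1 place, and how far sequence shared with other hair keratin genes bears on the values of Krt86 was not tested.

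The other type II genes with many CpGs had smaller differences. Krt75, a keratin of the hair follicle, had 66.3% and 57.3% over 85 CpGs, and Krt80, which is widely expressed in epithelia, 58.0% and 51.5% over 57. Both were called lower, but Krt80 missed the limit of 5 points at 10 reads or more (-3.72 points). Krt4, a keratin of the oral and oesophageal lining, had 73.5% and 69.3% over 68 CpGs and passed both tests but not the limit of 5 points. The same held for Krt79, which had the most CpGs of any member (121) with 47.0% and 43.5%. The level of Krt79 varied along its length. Its first stretches, up to 806 bases from the start, had 78.2% and 83.0% in WT and 75.7% and 80.1% in KI. Near its seventh exon 36 CpGs averaged 36.9% and 28.6%, and around the ninth exon 29 CpGs averaged 1.97% and 2.38%. The falls of Krt1 (65.6% to 55.7%, 10 CpGs) and Krt6a (72.8% to 63.1%, 12 CpGs), keratins of the upper epidermis and of activated keratinocytes, passed both tests and the limit. Krt83, a hair keratin, had 36.5% in WT and 37.2% in KI over 50 CpGs and was not called. The direction of Krt83 turned at 10 reads or more (-0.891 points), at 20 or more (-4.73 points, both adjusted p-values under the threshold), with strands summed (-0.337) and without flanks (-0.866). At its start 25 CpGs had 2.12% and 6.00%, at median depths of 28 and 8 reads.

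In the type I cluster, 7 of 18 genes were called lower (38.9%), beside 9.54% of all genes. Its 15 tested genes with a mean of WT and KI over 50% included 6 called lower (40%), beside 21.9% of all such genes. The 445 CpGs of the cluster averaged 68.5% in WT and 62.6% in KI, a difference of -5.94 points (-6.83 to -5.06). Krt42 fell from 73.6% to 66.4% over 74 CpGs and Krt27, a keratin of the inner root sheath of hair, from 73.1% to 64.8% over 68. Krt35, a hair keratin, fell from 67.9% to 54.7% over 45 CpGs (adjusted p = 0.000116 by Fisher's exact test, but 0.125 without the flanks, where the call was lost), with 76.4% and 63.6% in 12 CpGs just upstream of its start and 77.6% and 55.7% in 8 CpGs of its first exon. Krt222 had 42.8% and 39.6% over 43 CpGs and was not called. Its 12 CpGs at the start were at 1.19% and 0.926%. The largest change of any tested member, picked out after the values were seen, was in Krt10, a keratin of the upper epidermis, from 85.4% to 56.9%, but it rests on 9 CpGs of 1 strand with a mean of 15.9 reads in WT and 7.11 in KI. In Krt10, 3 neighbouring CpGs with 12 of 12 reads methylated in WT had 1 of 6 in KI. These were the only keratin CpGs over 70% in WT and under 20% in KI, and none went the opposite way.

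Of the 5 tested members whose mean was higher in KI, 4 were type I genes, and none was called. Krt24 had 73.0% in WT and 78.1% in KI over 15 CpGs, with 7 CpGs higher and 6 lower, and its summed reads were lower in KI (-3.36 points). At 20 reads or more Krt24 was called lower (-7.89 points). Krt28 had 66.7% and 70.8% over 10 CpGs, Krt26 78.1% and 80.4% over 39, and Krt40 68.5% and 69.96% over 12. The intervals of Krt26, Krt28 and Krt40 include 0, Krt28 turned to -1.85 points at 10 and at 20 reads or more, and Krt40 was called higher without the flanks (6.36 points). For Krt28 the 2 tests disagreed (adjusted p = 8.99e-05 by Fisher's exact test and 0.985 by the stratified test), and its mean depth was 28.5 reads in WT and 13.7 in KI. Of all 1681 CpGs, 50 were called lower (2.97%) and 3 higher (0.178%), beside 1.09% and 0.0474% of all shared CpGs. The CpGs called lower included 13 in Krt86, 6 in Krt7 and 5 in Krt75, and the 3 called higher were 1 each in Krt26, Krt40 and Krt74, these counts by gene being looked up after the values were seen.

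Of the keratin-associated genes, 8 could be tested, 3 of which were called lower (37.5%), beside 9.54% of all genes. The 7 tested genes with a mean of WT and KI over 50% included these 3 (42.9%), beside 21.9% of all such genes. The 122 CpGs of 11 keratin-associated genes averaged 57.7% in WT and 52.4% in KI, a difference of -5.33 points (-6.94 to -3.71). The genes called lower were Krtap11-1 (69.0% and 63.5%, 20 CpGs), Krtap29-1 (65.1% and 58.5%, 18 CpGs) and Krtap15 (73.4% and 62.9%, 10 CpGs). Without the flanks the calls of Krtap11-1 and Krtap29-1 were lost (adjusted p = 0.118 and 0.134 by Fisher's exact test). Krtap26-1 had 73.2% and 65.1% over 13 CpGs and did not pass Fisher's exact test on summed reads (adjusted p = 0.0912). Krtap17-1 stood apart in level, with 20.4% and 18.5% over 23 CpGs that lie within 310 bases of its start, and its interval includes 0 (-5.45 to 1.58 points). The other keratin-associated genes with at least 10 CpGs lay between 58.5% and 74.6% in both libraries.

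**Figure D4:**
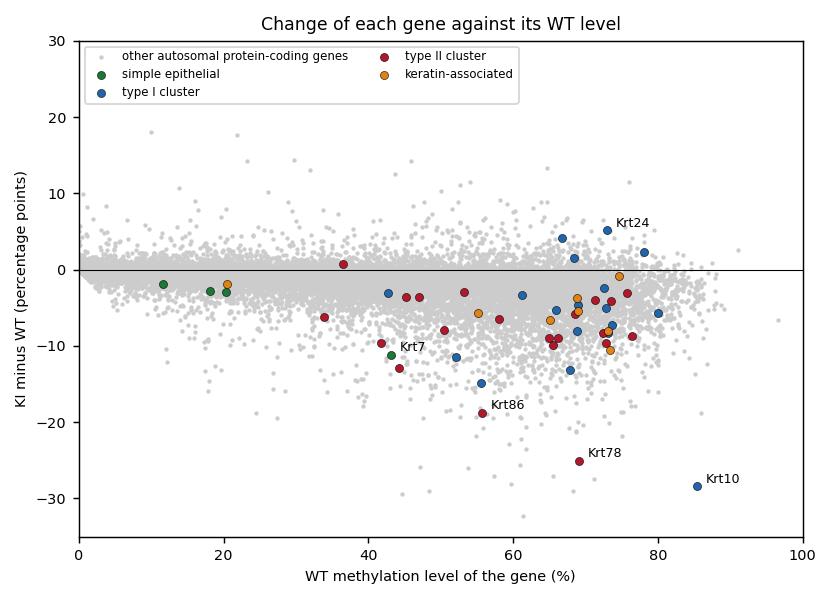
KI minus WT difference (y axis, percentage points) against the WT level (x axis, %) of each autosomal protein-coding gene with at least 5 shared CpGs, with 51 keratin and keratin-associated genes in colour by group. The members lie mostly at WT levels above 40% and below the line at 0, 46 of the 51 with a negative difference. Of all genes, 2 fall outside the y axis.

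CpGs at like levels were then compared, taking the mean of WT and KI as the level. At CpGs between 20% and 70%, the difference was -10.7 points (-13.2 to -8.32) in the 78 CpGs of simple epithelial genes and -13.4 points (-14.9 to -12.0) in the 337 CpGs of the other members, compared with -6.22 points in all genes. At CpGs over 70%, it was -7.88 points (-11.9 to -3.83) in 25 CpGs and -5.63 points (-6.27 to -5.00) in 716, compared with -2.68 points in all genes. At CpGs under 20%, it was -1.68 and -1.89 points, compared with -0.228 points. In each class the intervals of the simple epithelial and other members overlapped, and both lay apart from the value of all genes. The makeup of the groups differed, since 64.0% of the simple epithelial CpGs were under 20% in WT, compared with 21.3% of the other CpGs.

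**Figure D5:**
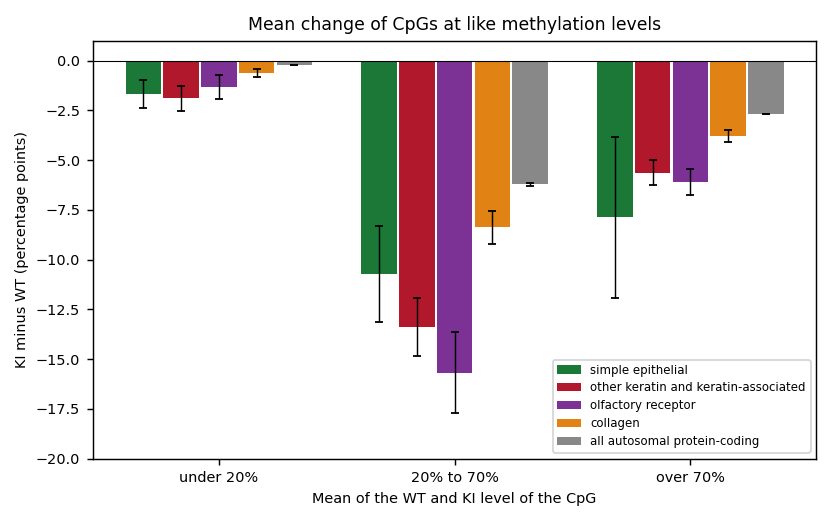
Mean KI minus WT difference (bars, y axis, percentage points) of CpGs in 3 classes of level (x axis, mean of the WT and KI level), for simple epithelial genes, other members, olfactory receptor genes, collagen genes and all autosomal protein-coding genes, with 95% intervals of counting error. The keratin, olfactory receptor and collagen bars reach further below 0 than those of all genes in each class.

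Other gene families that liver does not use or uses in few cells were set beside the keratins. The olfactory receptor genes, which are expressed in the nose and lie in clusters as well, had 62.3% in WT and 55.9% in KI over 1287 CpGs, a difference of -6.40 points (-6.93 to -5.88), and 37 of 72 tested genes were called lower. The collagen genes, which encode extracellular matrix, had 52.2% and 48.8% over 6987 CpGs, a difference of -3.37 points (-3.57 to -3.16), and 11 of 41 were called lower. The shares called lower were 51.4% of the olfactory receptors and 26.8% of the collagens, beside 9.54% of all genes. At CpGs between 20% and 70% the differences were -15.7 points (-17.7 to -13.7) and -8.39 points (-9.21 to -7.56). The values of the other keratin members thus overlapped those of the olfactory receptors and lay below those of the collagens. Among genes whose mean of WT and KI was over 50%, 17 of 35 keratin members (48.6%), 29 of 57 olfactory receptors (50.9%), 10 of 23 collagens (43.5%) and 1150 of 5257 genes in all (21.9%) were called lower. No test of the differences between these shares was made.

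Near the starts of genes, 33 members had at least 5 shared CpGs within 1 kb of the annotated 5' end, and 10 were called lower and none higher, beside 3.32% and 0.32% of all such promoters. The starting levels were unlike. Within 1 kb of the coding transcript start, CpGs averaged 5.50% in WT over all genes and 64.4% over the members other than simple epithelial. A share among promoters at like levels is not given, so the part of the starting level in this contrast was not tested. Of the 33, 25 had more than 50% methylation in WT and 4 less than 20% (Krt8, Krt18, Krt83 and Krt222). The window was then set at the start of the transcript with the longest coding sequence, which moves it far for Krt7 and Krt19 and slightly for some others. There, 11 of 35 were called lower, Krt7 among them, and Krt19 joined those under 20%. The 3.32% above belongs to the annotated 5' end, and the share of all promoters called lower in the moved window is not given. The observed over expected CpG ratio in this window gave weak correlations with the WT level among these 35 genes (Pearson's r = -0.255 and Spearman's rho = -0.0552, across genes that share 2 libraries and are no independent replicates). By annotation, the CpGs of the other members differed by -7.41 points upstream, -6.80 in exons, -6.26 in introns and -5.49 downstream, with overlapping intervals.

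Genes that work with keratins or lie beside them were compared from lists. None of the 16 genes of other intermediate filament proteins was called in either direction, beside 9.54% called lower and 0.134% called higher of all genes. Compared with 66.7% for the tested keratin members, the median WT level of these 16 genes was 22.1%. The 3 with the most CpGs were Lmnb1 (23.1% in WT and 22.1% in KI), Lmna (35.5% and 34.9%), both of the nuclear lamina, and Synm (13.7% and 13.1%), a muscle filament protein. Of 24 tested desmosome and cornified envelope genes, most of which anchor keratin filaments or form the outer shell of dead keratinocytes, 3 were called lower (9.54% of all genes were). Trp63, 1 of these 3, is also among the keratinocyte markers and is named here after its value was seen. The genes of the list with the most CpGs, Plec (65.1% and 66.3%), Evpl (63.1% and 61.9%) and Dsp (46.1% and 44.5%), were not called. The list names 22 genes, but 1 symbol stands for 5 annotated genes. Within 500 kb of the clusters, 2 of 34 tested neighbours on chromosome 11 were called lower, and 2 of 34 on chromosome 15 were called lower and 1 higher, beside 9.54% and 0.134% of all genes. The median WT level of these neighbours was 32.2% and 35.4%, compared with 66.7% for the tested keratin members.

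Methylation does not measure which cells were present, but the markers of cell types were read in the same way, with 9.54% of all genes and 3.32% of all promoters called lower as the background. Of 7 tested hepatocyte genes 3 were called lower, and the median over their 4 measured promoters was 30.3% in WT and 21.3% in KI. Of 7 bile duct genes, which include Krt7 and Krt19, Krt7 alone was called lower. The median over 4 measured promoters was 0.799% in WT and 0.924% in KI, with ranges of 0.428% to 41.4% and 0.613% to 49.96%. Krt7 and Krt19 are not among these 4 promoters, since they had 1 and 3 shared CpGs within 1 kb of the annotated 5' end. Of 7 keratinocyte genes 5 were called lower, 4 of which are members (Krt1, Krt5, Krt10 and Krt14). The other, Trp63, was also counted among the desmosome and cornified envelope genes called lower. Lor, at 0% in WT and 0.486% in KI, and Ivl were not called. The 2 measured promoters had 69.8% and 51.2% at the median. They are those of Krt5 (54.3% and 45.5%) and Krt10 (85.4% and 56.9%), the latter with only 9 CpGs. A different share of bile duct or other cells in the 2 pools cannot be told apart from a different methylation level within cells, and its part in the fall of Krt7 was not tested.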

How the data were processed

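DNA from 2 pools of liver, WT and KI, was analysed by RRBS. Reads had been mapped to mm9 by the authors with Bismark (0.12.20 in the submitters' processing notes) who kept those that mapped uniquely. Trimming and duplicate removal are not given in the sources used here. For each cytosine in a CpG, the deposited files give the count of reads that cover it and the percent of them that are methylated. Methylated reads were recovered as coverage times percent, which gave whole reads for 100% of values, and the strand was read from the mm9 genome. Genes on sex chromosomes were left out.

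CpGs read at least 5 times in each library were averaged with equal weight. At single CpGs a two-sided Fisher's exact test was used, adjusted by the Benjamini-Hochberg method over 2654195 CpGs. Genes and promoters with at least 5 shared CpGs were tested on summed reads (Fisher's exact test) and by the Cochran-Mantel-Haenszel test, both two-sided and adjusted over all genes (17151) or promoters (13456). A stretch is at least 5 shared CpGs with gaps of at most 150 bases. Intervals at 95% cover counting error only. Scripts used Python 3.11.15, numpy 2.4.6, pandas 2.3.3, scipy 1.17.1 and numba 0.67.0, were tested on simulated data, and took genes from GENCODE for mm9.

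The members, lists and tests were chosen with earlier results of these data known. The text names the 4 simple epithelial genes, the 5 members with the most shared CpGs in each other group, the 5 largest falls and the 5 largest rises among members with at least 10 shared CpGs, members called higher, and the 3 members of a list with the most CpGs. The lists are other intermediate filament genes, desmosome and cornified envelope genes, markers of hepatocytes, bile duct cells and keratinocytes, and neighbours within 500 kb. Alternatives were a coverage minimum of 10 or 20 reads, CpGs outside CCGG sites, strands summed, weighting by reads, reads thinned to equal numbers, summed reads alone, other windows, at least 10 shared CpGs and no size limit.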

Additional observations from a re-analysis of the deposited data

How the results depend on the processing

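With 1 library per genotype no replicate could be left out, and no paired analysis was possible because each genotype has 1 pool. The KI levels of the members stayed below WT under every setting run for the group means, and the count of genes called lower ran from 17 (gene without flanks) to 29 (no size limit). The simple epithelial minus other WT level was -43.2 points at 10 reads or more, -43.3 at 20 or more, -48.6 without CpGs in CCGG sites, -38.7 with strands summed and -46.6 weighted by reads. Without CpGs in CCGG sites the change was -7.30 points over all members and -7.97 over those other than simple epithelial. Weighted by reads, the simple epithelial change was -3.34 points. CpGs called lower and higher numbered 31 and 1 with strands summed, and 97 and 7 with no size limit. Without the flanks 1 gene was called higher (Krt40, 6.36 points). At 20 reads or more, Krt24 was called lower (-7.89 points), and it was not called at 5 reads or more. The cause was not tested. Of 225 comparisons of 25 named genes under 9 settings, 207 kept direction and call, 4 lost the call (Krt80 at 10 reads or more, and Krt35, Krtap11-1 and Krtap29-1 without flanks), 7 gained one and 7 changed direction. Besides Krt24 these were Krt28 (-1.85 points at 10 and at 20 reads or more, with fewer than 5 CpGs left) and Krt83 (-0.891 at 10 reads or more, -4.73 at 20 or more, -0.337 with strands summed and -0.866 without flanks), none of them called. No size limit, summed reads alone and at least 10 shared CpGs leave the change of every named gene as it was. Direction could therefore not turn under those settings, and the 207 comparisons include theirs. The promoter window at the coding transcript was added after the data were seen. Few reads lie behind Krt10, Krt28 and the start of Krt8.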
